A study of Mus musculus with 2 samples.

Results

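The cells described here are endothelial cells of the mouse adrenal gland that held RNA of Npnt, Tspan8, Lgr5, Epha6, Scin and Ptn. They were chosen by a gate on single cells: a cell was taken when its summed raw UMIs (unique molecular identifiers, each standing for 1 captured transcript) of these 6 genes reached 3, came from at least 2 of the genes, and were accompanied by no UMI of the sinusoid genes Stab2, Dnase1l3 and Clec4g. The gate took 389 of 9927 filtered cells (3.92%). Of these, 214 of 3793 cells were in the VEGF/LysM library (5.64%, exact Clopper-Pearson 95% interval 4.93 to 6.42%) and 175 of 6134 in the WT library (2.85%, 2.45 to 3.30%).

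The 2 groups were adrenal glands of mice labelled VEGF/LysM and of wild-type (WT) mice, female and aged 12 weeks in both, with 1 library each. LysM is another name of Lyz2, whose promoter is used to drive Cre in macrophages and other myeloid cells. The labels name neither the Vegfa allele nor the Cre, and they do not say how many mice were pooled for a library. In both groups minced glands were treated with a bacterial protease in the cold, and live cells with CD31 and without CD45 on their surface were sorted. The sort is meant to keep endothelium and to remove leukocytes, macrophages included, but other cells of both libraries still held myeloid markers at 517 CPM in VEGF/LysM and 341 CPM in WT. The study asked how VEGF-A from macrophages bears on the kinds of endothelium in the gland.

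Arterial endothelium lines the vessels that bring blood under high pressure into an organ. It is kept in its state by Notch signalling between neighbouring cells and by SoxF transcription factors, is joined by the gap-junction proteins connexin 37 and connexin 40, and lies on an elastic matrix. In the adrenal gland, capsular arteries feed a dense bed of fenestrated capillaries that runs from the cortex to the medulla. Lgr5 is a receptor of R-spondins, secreted proteins that strengthen Wnt signalling, and is best known as a marker of epithelial stem cells. Ptn is the secreted growth factor pleiotrophin, Npnt the matrix protein nephronectin, Tspan8 a tetraspanin of the cell surface, Epha6 a receptor of ephrins and Scin an actin-severing protein.

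The VEGF/LysM library held 3807 barcodes and 10323972 UMIs, and the WT library 6276 barcodes and 8606348 UMIs. The filter on depth, genes and mitochondrial RNA left out 14 and 142 barcodes, and 10 barcodes occurred in both libraries, none of them gated. Gated cells were as deep as the rest of their library, with a median of 2277.5 UMIs against 2346 in other cells of the VEGF/LysM library and 1195 against 1189 in the WT library. The VEGF/LysM library was thus deeper, and a deep cell passes a gate of 3 UMIs more easily. When every cell was thinned to 1000 UMIs before gating, which left out 290 VEGF/LysM and 2141 WT cells, the gate took 144 of 3503 VEGF/LysM cells (4.11%, 3.48 to 4.82%) and 94 of 3993 WT cells (2.35%, 1.91 to 2.87%). The share of gated cells in the VEGF/LysM library lay above that in the WT library at both depths, by 2.79 percentage points as deposited (1.95 to 3.67) and by 1.76 after thinning (0.94 to 2.60). With 1 library per group there is no replicate check, no test was run on any value below, and all intervals cover counting error only.

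The values that chose the cells are given as a description. Gated cells held a median of 11 gate UMIs in the VEGF/LysM library and 6 in the WT library. At the edge of the gate, 7 VEGF/LysM and 29 WT cells held exactly 3 gate UMIs inside it, while 37 VEGF/LysM and 69 WT cells with 2 gate UMIs, and 41 and 44 cells with 3 or more UMIs of a single gate gene, lay outside. At least 3 of the 6 genes were found in 168 of 214 VEGF/LysM cells (78.5%) and 103 of 175 WT cells (58.9%), and all 6 genes in 11 and 3 cells. To describe each gate gene apart from its own part in the choice, the gate was rebuilt from the other 5 genes. In those cells Ptn was detected in 74.3% of VEGF/LysM and 44.5% of WT cells, Npnt in 69.9% and 54.2%, Scin in 59.2% and 40.3%, Tspan8 in 54.4% and 38.9%, Lgr5 in 39.3% and 25.3%, and Epha6 in 30.9% and 24.8%. Each gate gene thus marked only some of the cells that the others picked out, and its share was higher in the deeper library.

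Levels in these rebuilt gates are counts scaled to the total UMIs of the cells (CPM), while which cells pass still depends on their depth and on the other 5 genes. Ptn had 1367 CPM in VEGF/LysM cells (95% Poisson interval 1269 to 1472) and 756 in WT cells (638 to 890), a log2 ratio of 0.85 (0.60 to 1.12). Scin, Tspan8 and Lgr5 had log2 ratios of 0.55 (0.19 to 0.92), 0.42 (0.15 to 0.70) and 0.37 (0.06 to 0.68). Epha6 stood at -0.03 (-0.34 to 0.30), with an interval that included equal levels. Npnt ran the other way, with 949.7 CPM in VEGF/LysM cells (869.6 to 1035) and 1193 in WT cells (1045 to 1356), a log2 ratio of -0.33 (-0.55 to -0.10). The gene bodies lie on several chromosomes of GRCm38/mm10 (GENCODE M21), with Npnt at chr3:132881745-132950291, Ptn at chr6:36714929-36810220, Scin at chr12:40059769-40134228 and Epha6 at chr16:59653483-60605531. Lgr5, at chr10:115450311-115587780, and Tspan8, at chr10:115816832-115849893, are close neighbours.

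The label of the cells as arterial was set against 23 arterial markers, none of which is a gate gene. Gate and markers were chosen with earlier results of these data known, so the values are a description. Together the markers held 6959.9 CPM in gated VEGF/LysM cells (6756 to 7168), against 1933 in the other cells of that library. In gated WT cells they held 6921 CPM (6598 to 7255), against 1965 in other WT cells. Cells gated at full depth were also thinned to 1000 UMIs, which kept 198 of 214 VEGF/LysM and 118 of 175 WT gated cells. The median of these held 5 arterial genes in the VEGF/LysM library and 4 in the WT library, against 1 in other cells of both. At least 3 arterial genes were found in 85.9% of these VEGF/LysM and 83.9% of these WT cells, against 18.1% and 15.8% of other cells. Pan-endothelial genes reached 3 UMIs in 213 of 214 VEGF/LysM and 174 of 175 WT gated cells. Their summed level was 11817 CPM in gated VEGF/LysM cells against 16136 in other cells, and 13072 CPM in gated WT cells against 16936 in other cells. Pecam1, which encodes the CD31 of the sort, stood at log2 ratios of -0.65 and -0.38. The group as a whole thus held more RNA of the arterial list than other cells did. The markers of veins, lymphatics, sinusoids and tip cells all summed to less in gated than in other cells of both libraries. For sinusoids this is tied to the gate, which takes no cell with Stab2, Dnase1l3 or Clec4g.

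**Figure D1:**
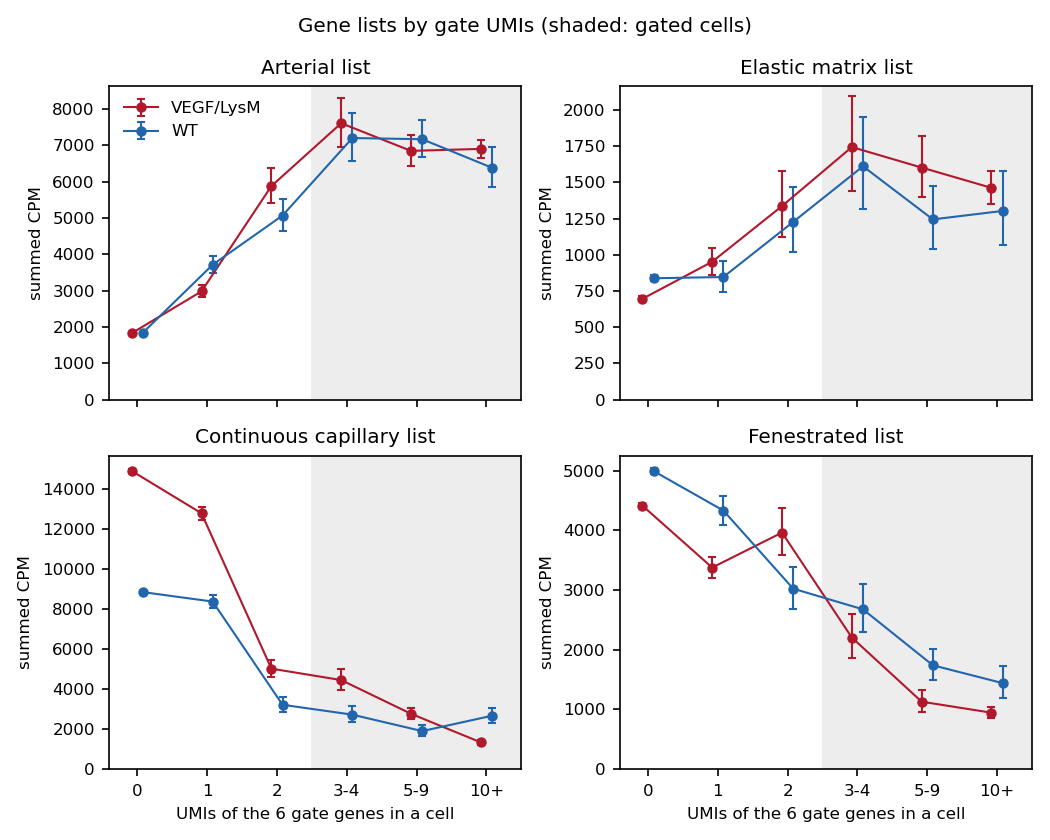
Summed level of 4 gene lists (y axes, CPM from 0, with 95% Poisson intervals) in cells grouped by their UMIs of the 6 gate genes (x axis), for the VEGF/LysM library (red) and the WT library (blue), with gated cells shaded. Cells outside the gate with 3 or more UMIs of 1 gene are not drawn. The arterial list lies between 6381 and 7606 CPM in the shaded groups and at 1826 and 1839 CPM in cells with 0 gate UMIs, and the fenestrated list is lower in the shaded groups than in cells with 0 gate UMIs.

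The arterial level was higher with each of the first gate UMIs and then changed little, as the plot of list levels by gate UMIs shows. It was 1826 CPM in VEGF/LysM and 1839 CPM in WT cells with 0 gate UMIs, 2978 and 3711 with 1 UMI, and 5875 and 5065 with 2 UMIs. Inside the gate it was 7606, 6844 and 6899.6 CPM at 3 to 4, 5 to 9 and 10 or more gate UMIs in the VEGF/LysM library, and 7198, 7165 and 6381 CPM in the WT library. Cells with 2 gate UMIs, just outside, were thus well above cells with 0 gate UMIs in arterial RNA but below every group inside the gate. Cells with 3 or more UMIs of a single gate gene stood lower, with 2274 CPM in the VEGF/LysM and 3764 CPM in the WT library. These cells also held less pan-endothelial RNA, 6072 CPM in VEGF/LysM and 8001 CPM in WT. The groups inside the gate held 11646 to 13258 CPM of it. The arterial level of their endothelial cells alone was not tested. The fenestrated list was lower in each stronger group inside the gate, down to 945 CPM in VEGF/LysM and 1440.0 CPM in WT cells with 10 or more gate UMIs. The continuous capillary list did so only in the VEGF/LysM library (4453, 2767 and 1336 CPM), while in the WT library it stood at 2723, 1901 and 2669 CPM.

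Markers of cells outside the endothelium were also summed. All 7 chromaffin, all 6 lymphoid and all 8 epithelial or mesothelial markers had 0 UMIs in the gated cells of both libraries. The Poisson interval of a count of 0 reached 5.82 CPM in gated VEGF/LysM cells and 14.8 CPM in gated WT cells. Adrenocortical markers summed to 845 CPM in gated VEGF/LysM cells and 208 in gated WT cells, against 667 and 501 in other cells. Mural markers, among them 7 of 8 at 0 in WT, summed to 93.2 and 32.0 CPM, and myeloid markers to 219 and 128 CPM with 3 and 7 of 9 at 0. Erythroid markers summed to 63.2 CPM in gated VEGF/LysM cells and 328 in gated WT cells, against 696 and 426 in other cells. Part of this came from few cells. Of the 214 VEGF/LysM cells 7, and of the 175 WT cells 2, held at least 5 UMIs and at least 0.05% of their RNA from 1 non-endothelial list, and are called mixed cells below. The limit was set after these cells had been seen. One VEGF/LysM cell of 17662 UMIs held 245 adrenocortical UMIs, 44 Ptn UMIs and 0 pan-endothelial UMIs. A second held 177 adrenocortical UMIs of 13783, with 16 pan-endothelial UMIs. Another held only 10 adrenocortical UMIs of 14553, with 242 pan-endothelial UMIs. Others held 46 mural UMIs of 12428 and 11 myeloid UMIs each of 11186 and 6857, with 94, 131 and 107 pan-endothelial UMIs. The limit thus also took deep cells with many pan-endothelial UMIs. Both mixed WT cells held erythroid UMIs, 12 of 3136 and 48 of 798, as did 1 VEGF/LysM cell, 7 of 990. The 7 mixed cells carried 77459 of the 633340 UMIs of gated VEGF/LysM cells, and the 2 mixed WT cells 3934 of 249687. Without mixed cells the adrenocortical markers summed to 171 and 212 CPM, the mural markers to 16.2 and 20.3 CPM and the erythroid markers to 48.6 and 89.5 CPM.

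Gated cells were then set against all other cells of the same library. A gene was tested when it had at least 30 UMIs in the gated cells of each library. It was called when the exact 95% interval of its ratio lay wholly beyond 2-fold on the same side in both. The shared direction of called genes in both libraries thus follows from the rule. Of 1818 genes tested, 121 were called higher (6.66%) and 26 lower (1.43%), and the median log2 ratio of all tested genes was 0.00 in VEGF/LysM and 0.06 in WT. Genes with under 30 UMIs in gated cells could not be called lower, which holds down the second count. The gate was chosen with earlier results of the same cells known, so these counts are a description. Mitochondrial RNA made up a median of 2.54% of UMIs in gated VEGF/LysM cells against 1.86% in other cells, and 2.30% in gated WT cells against 1.68%, and its part in these differences was not tested.

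Ranked by the bound of its interval, the first gene was Sgpp2, which encodes a phosphatase of sphingosine-1-phosphate. It had 267 CPM in gated VEGF/LysM cells (169 UMIs) against 3.62 in other cells, and 204 CPM in gated WT cells (51 UMIs) against 2.29 in other cells. The log2 ratios were 6.21 (5.67 to 6.77) and 6.48 (5.69 to 7.32). After thinning, Sgpp2 was found in 46 of 198 gated VEGF/LysM cells and 13 of 118 gated WT cells, against 0.212% and 0.103% of other cells. Angpt1, the ligand that activates the Tie2 receptor and is usually made by mural cells, had 122 CPM in gated VEGF/LysM cells against 1.45 in other cells, and 120.2 CPM in gated WT cells against 2.41. Its counts were modest, 77 and 30 UMIs. Its receptor Tek ran the other way, with 504 CPM in gated VEGF/LysM cells against 954.5 in other cells and 529 CPM in gated WT cells against 1047.

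Angpt1, Edn1, Tgfb2 and Vegfc, which encode secreted ligands, were among the 25 leading genes. Edn1, which encodes the vasoconstrictor peptide endothelin 1, had 324 CPM in gated VEGF/LysM cells against 17.9 in other cells, and 420.5 CPM in gated WT cells against 23.5, log2 ratios of 4.18 (3.88 to 4.48) and 4.16 (3.80 to 4.51). Its clearing receptor in endothelium, Ednrb, was called lower, with 180.0 CPM in gated VEGF/LysM cells against 756 and 252 CPM in gated WT cells against 808. Tgfb2, a TGF-beta ligand, stood 4.03 (3.78 to 4.28) and 3.51 (3.15 to 3.85) higher on the log2 scale. Vegfc, a ligand of the receptors Flt4 and Kdr, had 589 CPM in gated VEGF/LysM cells against 45.2 in other cells, and 509 CPM in gated WT cells against 47.4. The ligand was thus high where its receptors stood below other cells. Flt4 had log2 ratios of -1.25 and -1.02, Kdr -1.54 and -1.16, and the co-receptor Nrp2, which was called, -2.47 and -2.04. Flt1, the decoy receptor, was level at 0.01 and -0.03. Of 9 VEGF ligands and receptors 6 were tested, 1 was called higher and 1 lower.

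Col18a1, the collagen whose end fragment is endostatin, had 276 CPM in gated VEGF/LysM cells against 8.06 in other cells, and 368.5 CPM in gated WT cells against 7.60, log2 ratios of 5.10 (4.71 to 5.50) and 5.60 (5.12 to 6.09). Fbn1 and Fbln5, which build elastic fibres, stood 3.87 and 3.43 higher in the VEGF/LysM library and 4.25 and 3.48 higher in the WT library on the log2 scale. The laminin chain Lama3 stood 1.67 and 1.93 higher. The proteases Mmp16 and Prss23 and the protease inhibitor Pi16 also led. In the elastic matrix list 2 of 4 tested members were called higher and 0 lower, and Ltbp4 and Ltbp1 were the 2 that were not called, at -0.58 and -0.22 in VEGF/LysM and -0.23 and -0.22 in WT. In the basement membrane list 2 of 9 tested members were called higher and 0 lower, with medians of -0.21 and 0.23. The main basement membrane collagens ran below other cells, Col4a1 at -0.84 and -0.46 and Col4a2 at -0.95 and -0.35.

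**Figure D2:**
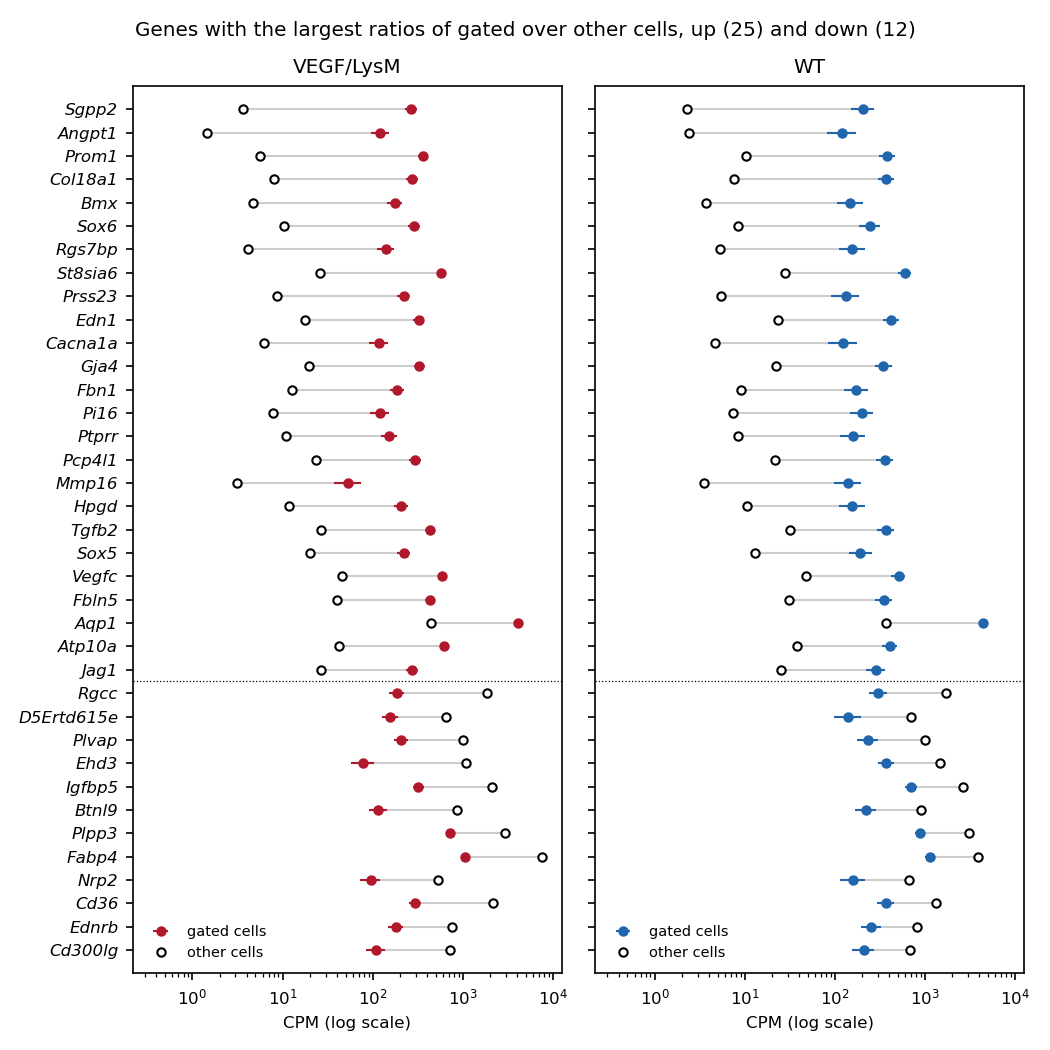
Level in gated cells (filled, with 95% Poisson intervals) and in all other cells (open) of the 25 genes with the highest and the 12 with the lowest ratio by the bound of its interval, on a log axis in CPM, for the VEGF/LysM library at left and the WT library at right. All 25 upper genes lie to the right of their open points in both libraries, and all 12 lower genes to the left.

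Among transcription factors, Sox17, a SoxF factor needed for arterial identity, had 1205 CPM in gated VEGF/LysM cells against 138 in other cells, and 1029 CPM in gated WT cells against 128. Mecom, which holds coronary and other arterial cells in their state, had 1494 CPM against 328 and 1602 CPM against 233. Sox5 and Sox6, SoxD factors best known from cartilage, were among the 25 leading genes, Sox6 with 287 CPM in gated VEGF/LysM cells against 10.4 and 244 CPM in gated WT cells against 8.45. Of 21 vessel transcription factors 11 were tested, 2 were called higher and 0 lower, with medians of 0.77 and 0.81. Klf4, which responds to flow, stood at 0.90 and 1.28 and Tbx3 at 1.09 and 1.30, both above other cells without reaching the call. Nr2f2, the factor of veins, stood at -2.57 and -2.83 on 48 and 16 UMIs.

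The arterial list had 13 tested members, of which 10 were called higher and 0 lower, with medians of 3.13 in VEGF/LysM and 3.01 in WT. Gja4, connexin 37, had 328 CPM in gated VEGF/LysM cells against 19.7 in other cells, and 344 CPM in gated WT cells against 22.3. Bmx, a cytoplasmic kinase of arterial endothelium, had 175 CPM against 4.65 and 148 CPM against 3.74. Sema3g, Alox12, Jag1, Vegfc, Edn1 and Fbln5 were the other called members beside Sox17 and Mecom. Gja5, connexin 40, stood at 3.15 and 3.57, but its 39 and 19 UMIs were too few to be tested. The 3 tested members that were not called were Efnb2, at -0.08 in both libraries, Dll4, at -0.33 and 0.17, and Ltbp4. Efnb2, an ephrin ligand, and Dll4, a Notch ligand, are widely used arterial markers, and in these libraries they were about as high in the other cells.

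Of 6 tested Notch genes 2 were called higher and 0 lower, the ligands Jag1, at 3.35 and 3.48 on the log2 scale, and Jag2, at 2.08 and 2.60. The other ligands Dll4 and Dll1 were not called, Dll4 at -0.33 and 0.17, and Dll1 at -0.40 in VEGF/LysM and -1.25 in WT on 17 and 4 UMIs. The receptor Notch4 stood above 0 at 1.00 and 1.53 without reaching the call, and Notch1 at -0.05 and 0.15. Of the targets, Hes1 stood at -0.06 and -0.24, while Hey1, at 0.62 and 2.01, and Hey2, at 2.57 and 3.47, had too few UMIs to be tested. In the Wnt and R-spondin list, which leaves out Lgr5 itself, 2 of 8 tested members were called higher and 0 lower, with medians of 0.22 in both libraries. Lef1, the transcription factor that Wnt signalling acts through and induces, had 600.0 CPM in gated VEGF/LysM cells against 74.0 in other cells, and 753 CPM in gated WT cells against 89.3. The receptor Fzd6 stood at 1.46 and 2.23. Axin2 and Znrf3, which Wnt signalling induces and which restrain it, stood at 3.01 and 2.27 in VEGF/LysM and 3.38 and 1.65 in WT, with under 30 WT UMIs each and so untested. The general components Ctnnb1, Lrp6, Tcf7l2 and Fzd4 were within 0.67 of equal levels on the log2 scale.

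Most members of the lists that hold receptors of the gate's own ligands had too few UMIs to be tested. Of 10 pleiotrophin receptors and relatives 1 was tested and 0 were called. In the integrin list, which holds the nephronectin receptor chain Itga8, 5 of 14 were tested and 0 were called, and Itga8 itself had 2 and 4 UMIs. Among Eph receptors and ephrins, 1 of 5 tested members, Epha4, was called higher, at 1.90 and 1.82. Of 10 tested junction genes only Gja4 was called.

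**Figure D3:**
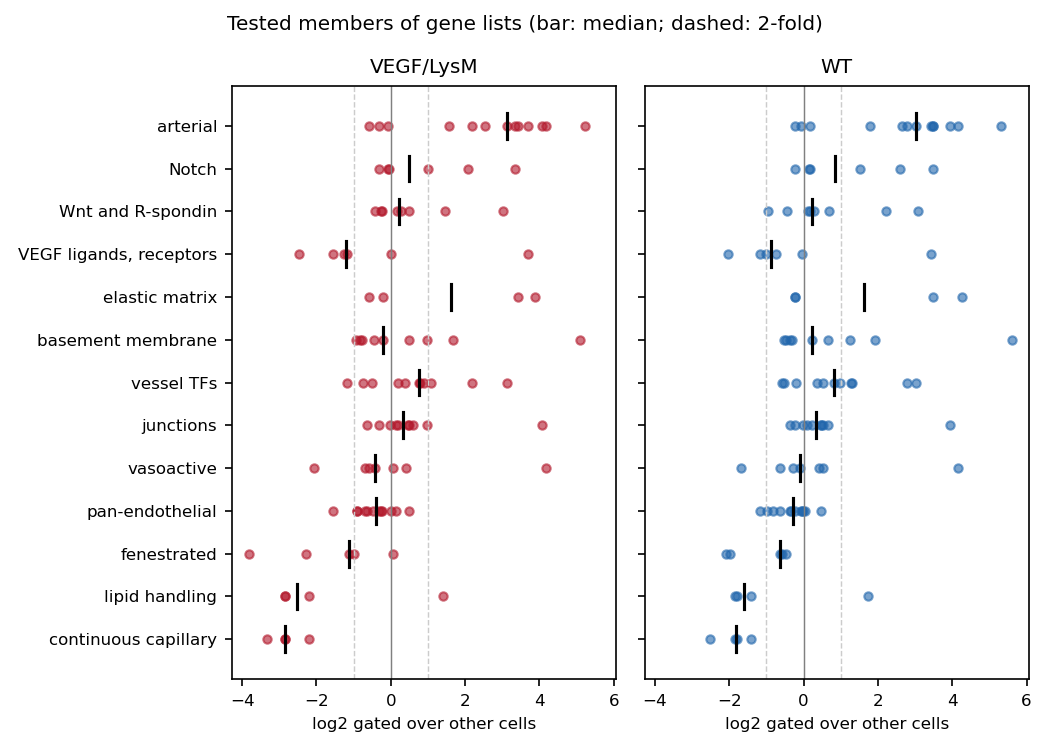
Log2 ratio of gated over other cells (x axis) of every tested member (points) of 13 gene lists (rows), for the VEGF/LysM library at left and the WT library at right, with the median of each list as a bar and 2-fold as dashed lines. Arterial members centre near 3 and all 4 continuous capillary members lie to the left of the lower 2-fold line in both libraries.

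The 12 genes named as lowest included markers of the capillary and fenestrated beds. Rgcc, a cell-cycle regulator of capillary endothelium, had 185 CPM in gated VEGF/LysM cells against 1862 in other cells, and 304 CPM in gated WT cells against 1729. Plvap, which forms the diaphragms of fenestrae, had 207 CPM against 999 and 232 CPM against 987. Ehd3, Igfbp5, Btnl9, Plpp3, Nrp2 and Cd300lg followed the same direction. The fatty acid genes Cd36 and Fabp4 and the lipoprotein lipase anchor Gpihbp1 were lower too, Fabp4 with 1059 CPM in gated VEGF/LysM cells against 7607 and 1125 CPM in gated WT cells against 3871. All 4 tested members of the continuous capillary list were called lower, and 2 of 5 of the fenestrated list. Aqp1, a water channel, showed the reverse, with 4059 CPM in gated VEGF/LysM cells against 447 and 4349 CPM in gated WT cells against 373.

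The 25 leading genes were also set against 2 other kinds of endothelium in the libraries. Capillary cells were taken as cells with at least 3 UMIs from at least 2 of Cd36, Car4 and Rbp7 and outside both other sets (672 VEGF/LysM and 576 WT cells), and Plvap cells as those with at least 3 Plvap UMIs and no sinusoid UMI (1452 and 1096 cells). All 25 genes lay more than 2-fold higher, by interval, in gated cells than in either set in both libraries. The comparison was chosen with the 25 known. The other cells against which the 25 were ranked largely include both sets, so this outcome was partly fixed by the ranking. Aqp1 came nearest to the capillary cells, with 4059 CPM in gated cells against 1677 in VEGF/LysM capillary cells and 4349 CPM against 1437 in WT capillary cells, while Plvap cells held 42.4 and 52.1 CPM. Mecom also ran above Plvap cells more than above capillary cells, which held 913 and 827 CPM of it against 75.2 and 66.8 CPM in Plvap cells. The arterial list as a whole summed to 3113 and 3236 CPM in capillary cells and to 1410 and 1478 CPM in Plvap cells. Only 18 VEGF/LysM and 6 WT gated cells (8.41% and 3.43%) also held 3 Plvap UMIs, and 5 and 6 met the capillary rule.

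Gated cells were not uniform among themselves. This comparison was added after the data had been seen. For each gate gene, gated cells with a UMI of it were set against gated cells without, mixed cells left out, and a gene counted when its interval excluded equal levels in both libraries, a weaker rule than above. Of 1777 genes tested, Ptn split off 36 higher (2.03%) and 28 lower (1.58%), Epha6 22 (1.24%) and 31 (1.74%), Npnt 20 (1.13%) and 25 (1.41%), Tspan8 16 (0.9%) and 19 (1.07%), Lgr5 12 (0.675%) and 7 (0.394%), and Scin 4 (0.225%) and 8 (0.45%). The splits use UMIs that also chose the cells, and a UMI of a gate gene is found more easily in a deeper cell, so they are a description. With a 95% interval in each of 2 libraries some genes pass by counting error alone, so the smallest counts carry little.

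The split by Ptn had the most genes. Cells with Ptn (162 VEGF/LysM and 104 WT) held more Esm1, a secreted proteoglycan of VEGF-stimulated endothelium, with 456 CPM against 145 in VEGF/LysM cells without Ptn and 748.5 CPM against 272 in WT cells without it. They held more of the drug transporter Abcb1a, with 421.5 CPM against 179.6 in VEGF/LysM cells and 419.7 CPM against 126.5 in WT cells, and more of Stxbp6, Nfat5, Rhoj and Adamtsl1. They held less Fabp4, with 405.5 CPM against 2368 in VEGF/LysM cells without Ptn and 686 CPM against 1498 in WT cells without it. With mixed cells included, Fabp4 was uneven, since the 5 cells with the most of it held 49.8% of its gated VEGF/LysM UMIs and 59.8% of its gated WT UMIs. Without mixed cells, as in the split, 455 of 671 VEGF/LysM and 252 of 281 WT UMIs remained. Apold1, Atp13a3, Pcsk5, Tinagl1, Timp3 and Cst3 were also lower with Ptn.

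Cells with Epha6 (70 VEGF/LysM and 59 WT) held less Esm1 (125.1 CPM against 549 in VEGF/LysM, 318 against 709 in WT), less Vegfc (389.6 against 741, 298.5 against 633) and less Aqp1 (3232 against 5342, 2508 against 5721). They held more Igfbp5 (625 against 184, 935 against 558), Plscr2, Atp8a1 and Tcim. With mixed cells included, Igfbp5 was detected in 13 VEGF/LysM and 26 WT gated cells. Cells with Npnt (153 VEGF/LysM and 115 WT) held more Aqp1 (4985 against 3096, 5321 against 2431), Vegfc (706 against 284, 589 against 296) and the tight-junction gene Cldn5 (1105 against 386, 678.5 against 347), and less Cyp26b1, Ctgf and Jun. The Npnt split of Esm1 stood at -1.50 in VEGF/LysM and 0.14 in WT, and that of Igfbp5 at 1.21 and -0.25, so neither ran one way in both libraries. Lgr5 cells held more Aqp1 (5753 against 3656, 6640 against 3473), Cldn5 and Trpm3. For Vegfc the Lgr5 split ran in opposite directions, with log2 ratios of -0.47 in VEGF/LysM and 1.12 in WT. Tspan8 cells held more of Fos, Jun, Gadd45g and Glul and less Vegfc, and Scin cells more Aqp1 and less Fabp4, Cd36 and Gpihbp1. Aqp1 was thus higher with Npnt, Lgr5, Scin and Ptn and lower with Epha6 and Tspan8 in both libraries.

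**Figure D4:**
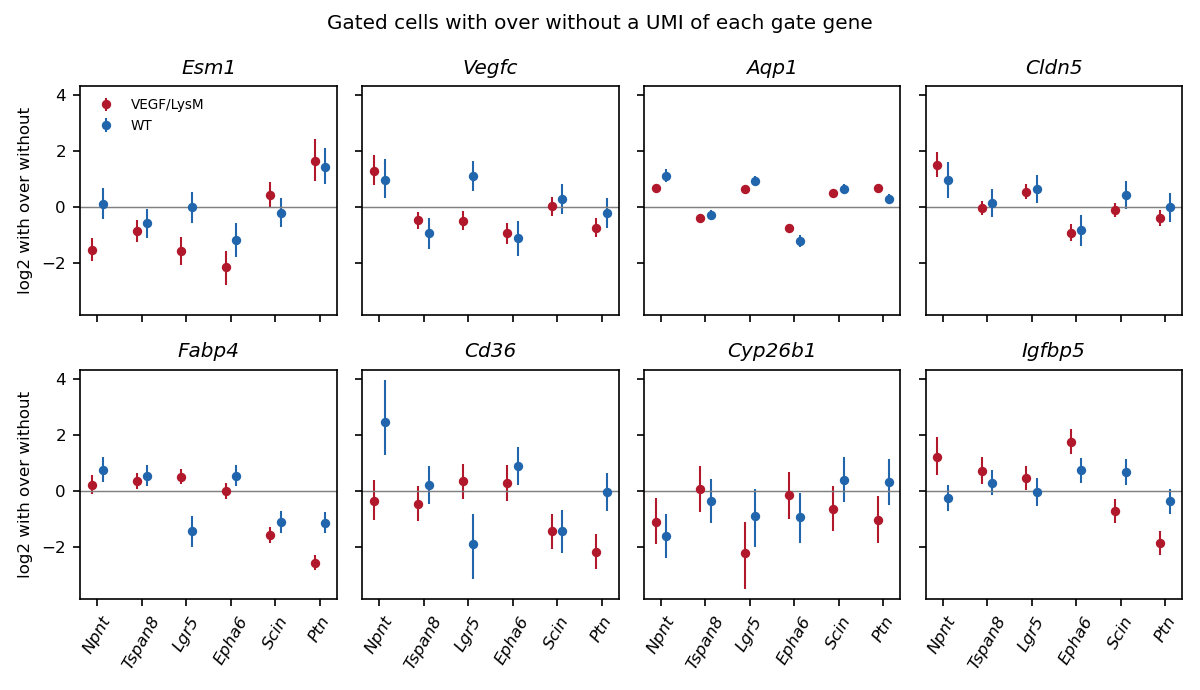
Log2 ratio (y axes, with 95% intervals) of 8 genes in gated cells with over gated cells without a UMI of each of the 6 gate genes (x axis), mixed cells left out, for the VEGF/LysM library (red) and the WT library (blue). Esm1 is higher with Ptn and lower with Epha6 in both libraries, and Aqp1 is higher with Npnt, Lgr5, Scin and Ptn and lower with Epha6 and Tspan8 in both.

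The other comparison was of gated VEGF/LysM cells with gated WT cells. Macrophages, the cells the label points to, were meant to be sorted away, and the Vegfa of gated cells is no check of the label. Vegfa had 24 UMIs in gated VEGF/LysM cells (37.9 CPM, 24.3 to 56.4) and 2 in gated WT cells (8.01 CPM, 0.97 to 28.9), and 11 of the 24 were in 1 cell. Without mixed cells it had 11 and 2 UMIs. A gene was tested here with at least 50 UMIs over both libraries and called when its interval showed a level more than 25% above that of the other library. Of 3878 genes tested, 65 were called higher in gated VEGF/LysM cells (1.68%) and 40 lower (1.03%), with a median log2 ratio of -0.02. Under median-of-ratios scaling the split was 86 higher and 20 lower.

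The higher calls were led by mixed cells. The 12 genes named by rank were Caln1, Cacnb2, Agtr1b, Hsd3b1, Ptprd, Cacna2d1, S100a9, Akr1cl, Wnt4, Kcnk3, Meg3 and Frmpd4. In all 12 over 80% of the VEGF/LysM UMIs lay in the 7 mixed cells, and in 11 of 12 over 50% lay in 1 cell. Of the 109 UMIs of Hsd3b1, a steroid-synthesis enzyme of the cortex, 59 were in 1 cell, as were 115 of 116 UMIs of the angiotensin receptor gene Agtr1b and all 88 of the neutrophil gene S100a9. In gated WT cells 9 of the 12 had 0 UMIs, Hsd3b1 and Agtr1b among them. The interval of the log2 ratio of VEGF/LysM over WT then began at 3.52 for Hsd3b1 and 3.61 for Agtr1b. Of these genes 0 of the 12 still reached 50 UMIs once mixed cells were left out.

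Without mixed cells 3515 genes were tested, 36 were called higher (1.02%) and 38 lower (1.08%), of which 29 and 30 were also called with them. Under median-of-ratios scaling these counts became 55 and 23. The median log2 ratio of all tested genes was -0.02, and 0.07 under that scaling. The values that follow are without mixed cells, and the ratio in all other cells is set beside the genes described at length. The choice was made after the mixed cells had been seen.

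Mgp, the matrix protein that keeps arteries from calcifying, had 318 CPM in gated VEGF/LysM cells and 81.4 in gated WT cells, a log2 ratio of 1.97 (1.30 to 2.71), against 1.22 in other cells. It was found in 41 of 214 VEGF/LysM and 14 of 175 WT gated cells, mixed cells included, and the 5 richest cells held 47.5% and 55.0% of its UMIs. Fbln2, a matrix fibulin, was also called higher, at 1.19 (0.47 to 1.98) against 0.42 in other cells. In the arterial list these were the 2 of 19 tested members called higher, Ltbp4 was the 1 called lower at -0.72 (-1.10 to -0.33) against -0.39 in other cells, and the median was 0.04. Sox17 stood at 0.38 (0.17 to 0.59), Vegfc at 0.30 (-0.01 to 0.61), Mecom at 0.02 and Gja4 and Jag1 at 0.05 and 0.04. None of these 5 was called.

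S100a4, a calcium-binding protein of motile cells, had 282 CPM in gated VEGF/LysM cells and 110 in gated WT cells, a log2 ratio of 1.36 (0.77 to 2.01) against 0.79 in other cells. Cldn5, the main claudin of endothelial tight junctions, stood at 0.71 (0.44 to 0.99) against 0.16. Icam2, an adhesion protein of endothelium, had 191 and 77.3 CPM, a log2 ratio of 1.30 (0.59 to 2.09) against 0.15. Fam181b had 241 and 106 CPM, 1.19 (0.57 to 1.85) against 0.13, and Kbtbd11 had 131 and 48.8 CPM, 1.43 (0.54 to 2.44) against -0.29. For Zbtb16, Icam2, Fam181b, Kbtbd11, Itprid2, Parp9 and Snhg1 the interval in gated cells lay wholly above that in other cells. Zbtb16, a zinc-finger transcription factor, stood at 2.63 (1.19 to 4.55) on 56 and 4 UMIs, against 0.99 in other cells. Tspo, a mitochondrial protein abundant in steroid-making cells, had 534 CPM in gated VEGF/LysM cells and 252 in gated WT cells, a log2 ratio of 1.08 against 0.89 in other cells.

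Of 7 tested heat-shock genes 2 were called higher and 0 lower, Hspa1a at 1.69 (0.54 to 3.07) against a log2 ratio of 1.00 in other cells, and Hspa5 with 174.5 CPM in VEGF/LysM and 73.2 CPM in WT cells, with a list median of 0.79. In other cells Hspa5 stood at 0.51 on the log2 scale, and the list had a median of 0.51. Dnajb11, a chaperone of the endoplasmic reticulum named after its value had been seen, ran the other way, with 36.0 CPM in gated VEGF/LysM cells and 122 in gated WT cells, a log2 ratio of -1.76. Of 10 tested immediate-early genes, which cells switch on within minutes of a stimulus or handling, 0 were called, with a median of -0.51 against -0.29 in other cells. Of 10 tested interferon genes 3 were called higher and 0 lower, Ifi27l2a at 0.82 (0.40 to 1.26), Bst2 at 0.76 (0.41 to 1.12) and Iigp1 at 1.01 (0.48 to 1.57), with a median of 0.35 against 0.11 in other cells. Mitochondrial RNA, a sign of RNA quality, made up a median of 2.54% of UMIs in gated VEGF/LysM cells and 2.30% in gated WT cells, mixed cells included. Its part in these differences was not tested.

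**Figure D5:**
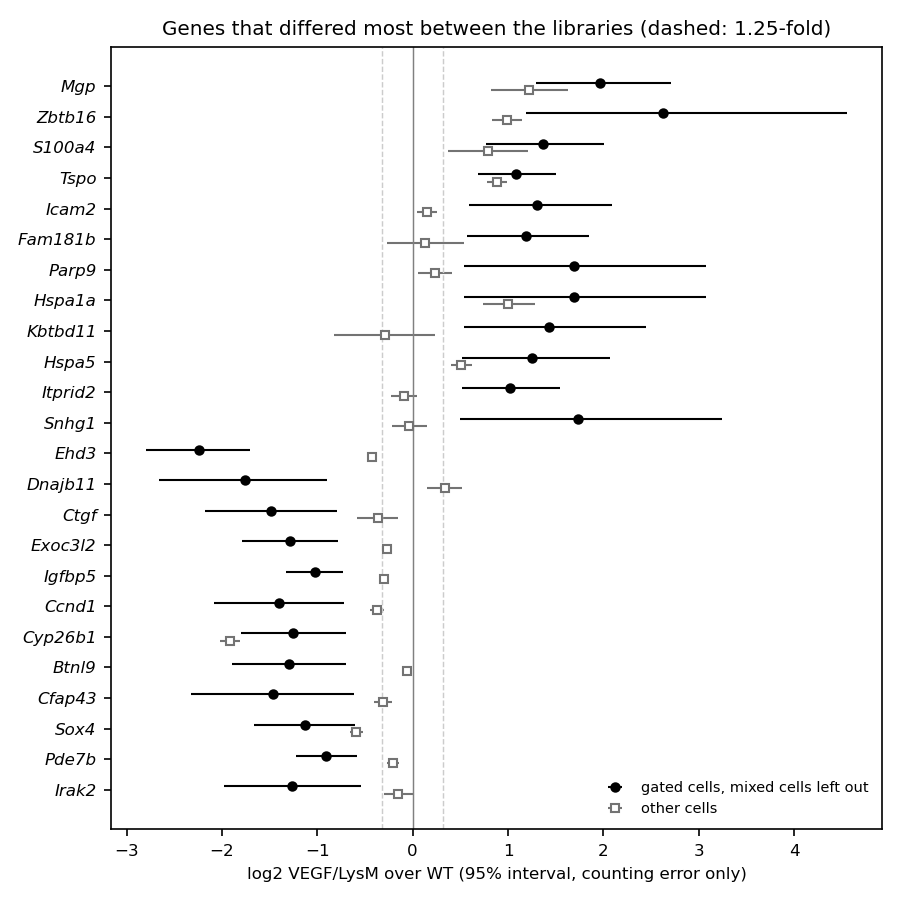
Log2 ratio of VEGF/LysM over WT (x axis, with 95% intervals) of the 12 highest and 12 lowest genes by the bound of their interval in gated cells with mixed cells left out (filled), and of the same genes in all other cells (open squares), with a 25% excess as dashed lines. Cyp26b1 is the gene whose open square lies furthest below 0, and Icam2, Fam181b, Kbtbd11, Itprid2 and Snhg1 have open squares near 0 beside filled points above 1.

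Of the 38 genes called lower in gated VEGF/LysM cells, 22 were below other cells in both libraries (57.9%), 6 were above in both, and 8 were among the 26 genes called lower than other cells. Of the 36 called higher, 10 were below (27.8%), 17 were above, and 2 were among the 121 called higher than other cells. Of all 3515 genes tested, 1239 were below (35.2%) and 1305 above. The ratios to other cells were taken with mixed cells included. Both ratios rest on largely the same gated counts, so these shares are a description. Ehd3, a membrane-trafficking protein of glomerular and fenestrated endothelium, had 79.2 CPM in gated VEGF/LysM cells and 374 in gated WT cells, a log2 ratio of -2.24 (-2.79 to -1.71), against -0.43 in other cells. Igfbp5 had 349 and 712 CPM, -1.03 (-1.33 to -0.73) against -0.30. It came from few cells, 13 of 214 and 26 of 175, mixed cells included, and the 5 richest held 82.3% and 63.4% of its UMIs. Exoc3l2 stood at -1.28 against -0.27 in other cells and Btnl9 at -1.29 against -0.06. In the fenestrated list 3 of 5 tested members were called lower and 0 higher, Ehd3, Npr3 and Cyp26b1, with a median of -0.90, against -0.02 in other cells. In the continuous capillary list 2 of 4 were called lower, Cd36 and Rgcc, with a median of -0.62. In other cells the median of 5 members was 0.63. With mixed cells kept, 0 of 5 tested members of the continuous capillary list were called, with a median of -0.23.

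The libraries also differed in the strength of the gate. Of gated VEGF/LysM cells 132 of 214 held 10 or more gate UMIs, against 45 of 175 gated WT cells. The strata of 3 to 4, 5 to 9 and 10 or more gate UMIs were therefore also given equal weight in both libraries. The log2 ratios of VEGF/LysM over WT were then -2.32 for Ehd3, -1.89 for Igfbp5, -2.01 for Mmp16, -1.98 for Cfap43 and -1.59 for Irak2, against -2.24, -1.03, -1.22, -1.46 and -1.26 with the cells as they came. Those of Btnl9 and Ctgf came nearer to 0, at -0.60 and -0.30, against -1.29 and -1.48. Dnajb11, Exoc3l2, Sox4 and Pde7b also came nearer to 0, at -1.44, -0.98, -0.90 and -0.74, against -1.76, -1.28, -1.13 and -0.90. Cyp26b1 and Sema3f did so too, while Ccnd1 and Ap3s1 moved further from 0. The genes called lower thus moved both ways. With the highest doublet scores left out and mixed cells kept, Ehd3 stood at -1.56. How much of the difference came from the make-up of the gated group was not tested beyond this.

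Genes of signalling were among the lower calls. Cyp26b1, which degrades retinoic acid, had 103 CPM in gated VEGF/LysM cells and 244 in gated WT cells, a log2 ratio of -1.25 (-1.80 to -0.70). The other cells stood lower still at -1.91. The retinoic acid receptor Rarg was called at -1.23 (-2.07 to -0.40), so that 2 of 4 tested genes of retinoic acid handling were lower and 0 higher. In the VEGF list Kdr stood at -0.56 (-0.79 to -0.34) against -0.16 in other cells, and Nrp2 at -0.98 (-1.62 to -0.33) against -0.33. These were 2 of 6 tested members called lower, with 0 higher and a median of -0.46. Flt1 stood at 0.08 (-0.04 to 0.20) and Nrp1 at -0.38 (-0.63 to -0.13). Sox18, the SoxF relative of Sox17, was called lower at -0.93 (-1.45 to -0.41) against 0.04 in other cells. Of the genes listed as responding to VEGF-A, 1 of 10 tested was called lower, Kdr, and 0 higher.

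Notch, Wnt and R-spondin, integrin, Eph, basement membrane, vasoactive, respiratory chain and glycolysis genes had no call in either direction between the libraries without mixed cells. Their tested members numbered 7, 10, 5, 5, 12, 7, 15 and 6. Of all genes tested only 1.02% were called higher and 1.08% lower, so no call in lists this small is near that share. Among the members were Jag2 at -0.21, Lef1 at -0.24 (-0.50 to 0.03), Axin2 at 0.02, Col18a1 at -0.27 and Edn1 at -0.22 (-0.57 to 0.14). Notch4 stood at -0.61 (-0.98 to -0.22) and Fzd6 at -0.62 (-1.11 to -0.12), with intervals below equal levels but not wholly beyond a 25% excess. Of the 25 genes that set gated cells apart, Mmp16 at -1.22 was called lower and Prss23 higher, and the rest were not called.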

How the data were processed

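CD31+ CD45- adrenal endothelial cells of 1 VEGF/LysM and 1 WT library were measured by 10x single-cell RNA-seq. Per the submitters' processing notes, Cell Ranger 7.0.1 and Seurat were used with mm10, while per the file headers the deposited matrices of raw UMI counts come from Cell Ranger 7.0.0. Neither source says whether introns were counted. The members of the gate and the gene lists were chosen with earlier results of these data known.

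A cell was kept with 500 or more UMIs, 300 or more genes and no more than 15% of its UMIs from mitochondrial genes. Raw counts were summed per library over gated and over other cells and scaled to the total (CPM). Intervals are exact at 95% (Poisson for CPM, Clopper-Pearson for shares, conditional binomial for ratios) and cover counting error only. Cells are not replicates, so no test across cells was run. Scrublet's automatic threshold marked 3 VEGF/LysM and 2 WT barcodes and was taken not to have worked. Doublets were therefore kept, and in an alternative the highest-scoring 116 VEGF/LysM and 315 WT barcodes were left out. The calling code was tested on simulated counts.

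Named genes were the gate genes, the 25 highest and 12 lowest genes by the bound of the interval against other cells, the 12 highest and 12 lowest between libraries, and list members with at least 50 UMIs over both libraries. Mitochondrial, ribosomal, haemoglobin and predicted genes were left out of the ranks. Of 54838 gene IDs 54723 were in GENCODE M21, which gave the coordinates. Alternatives changed the gate, the cell filter, the scaling, the minimum count and the depth. Leaving out mixed cells, alone or with another scaling or an equal mix of gate strata, was added after seeing the data. Software was python 3.11.15 with numpy 2.4.6, scipy 1.17.1, pandas 2.3.3, scanpy 1.11.5 and matplotlib 3.10.9.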

Additional observations from a re-analysis of the deposited data

Results flagged for a closer look

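Between the libraries, 5 genes ran one way in gated cells without mixed cells and the opposite way in all other cells, each beyond its counting interval. The log2 ratio of VEGF/LysM over WT was -1.76 in gated cells and 0.33 in other cells for Dnajb11, a chaperone of the endoplasmic reticulum. It was -0.94 against 0.70 for Cd36 and -0.33 against 0.97 for Fabp4, which handle fatty acids in capillaries. It was -0.91 against 0.11 for Rgcc and -0.49 against 0.18 for Esm1. With mixed cells kept, the gated ratios were -0.30 (-0.66 to 0.08) for Cd36 and -0.09 (-0.29 to 0.12) for Fabp4, whose intervals include equal levels, so for these genes the opposite direction beyond counting error appears only without mixed cells. With 1 library per group these differences were not tested. With mixed cells included, Cd36 rested on few cells, since the 5 richest held 78.2% of its gated VEGF/LysM UMIs and 71.4% of its gated WT UMIs. Without mixed cells 92 of its 188 gated VEGF/LysM UMIs and 78 of its 91 gated WT UMIs remained.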

How the results depend on the processing

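The larger share of gated cells in the VEGF/LysM library kept its direction under each alternative that gives one, and thinning before the gate lowered it to 1.76 points. Genes higher than other cells numbered 74 with a gate of at least 3 genes, 36 at 100 UMIs and 189 at 10 UMIs. Genes lower than other cells numbered 15 with at least 3 genes, 15 without Npnt, 16 without Tspan8, 14 with the stricter cell filter, 5 at 100 UMIs and 47 at 10 UMIs. Genes higher in gated VEGF/LysM cells than in WT numbered 26 with at least 3 genes, 41 without Npnt, 30 without Ptn, 37 at 100 UMIs, 107 at 20 UMIs, 15 after thinning, 36 without mixed cells and 40 with an equal mix of gate strata besides. Genes lower in VEGF/LysM numbered 20 under median-of-ratios scaling, 23 under it without mixed cells, 25 at 100 UMIs, 69 at 20 UMIs and 9 after thinning. Fewer genes could be tested at 100 UMIs and after thinning. Cacna2d1 reversed to -1.18 without mixed cells, to -1.90 with an equal mix besides and to -1.09 under median-of-ratios scaling besides, and the median of the vasoactive list reversed to 0.022 with an equal mix without mixed cells. The cause was not tested for the other changes. Of the remaining values under alternatives, 32 of the list medians moved and 1107 did not, 88 ratios of named genes against other cells moved and 1170 did not, and 21 ratios between libraries moved and 559 did not. No paired analysis was possible because each group has 1 library. Depth limits genes with under 30 UMIs in gated WT cells.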

Other observations

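Of the gate genes, Lgr5 and Tspan8 are neighbours, and Ptprr, a phosphatase gene among the 25 leading genes, lies next to Tspan8. This was noticed after the values were seen. The 3 genes span 824.6 kb of chr10:115450311-116274932 (GRCm38/mm10), which holds 5 protein-coding genes in GENCODE M21. Ptprr had 152 CPM in gated VEGF/LysM cells against 10.9 in other cells, and 160.2 CPM in gated WT cells against 8.32. A930009A15Rik, which overlaps Lgr5 on the opposite strand, had 12 UMIs in gated VEGF/LysM cells and 2 in gated WT cells. The remaining gene, 4933416C03Rik, had 0 UMIs in both libraries.

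Lyz2, the myeloid lysozyme gene that LysM names, was found in 4 of 214 gated VEGF/LysM cells and 4 of 175 gated WT cells. Of other cells, 86 of 3579 in VEGF/LysM (2.40%) and 84 of 5959 in WT (1.41%) held it, so the gated share was not set apart from theirs. The gated cells held 43, 37, 5 and 2 UMIs in VEGF/LysM and 16, 6, 3 and 3 UMIs in WT. In 3 of 4 VEGF/LysM and 4 of 4 WT cells the other 8 myeloid markers were at 0. All 8 cells held Npnt, but Npnt is a gate gene. It was found in 73.8% of all gated VEGF/LysM cells and 65.7% of all gated WT cells.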
